A study of Mus musculus with 2 samples.

Results

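Imprinted genes with roles in growth formed a set of 10, Dlk1, Meg3, Peg3, Igf2, H19, Plagl1, Mest, Grb10, Nnat and Ndn. They were taken by gene symbol, and each matched 1 of the 31055 features counted in either library, so all 10 were found in both. An imprinted gene is transcribed mainly from the copy inherited from 1 parent. Dlk1, Igf2, Peg3, Plagl1, Mest, Nnat and Ndn are known as paternally expressed and Meg3, H19 and, in most tissues, Grb10 as maternally expressed, and several lie in clusters controlled together, such as Dlk1 with Meg3 and Igf2 with H19. Genes of this kind set the size of the embryo and placenta and are often high in embryonic and newborn tissue and in progenitors. The counts hold no allele, so parental origin was not measured here.

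The libraries were made from pituitaries of mice at postnatal day 3, with 3 male pituitaries pooled in 1 library and 3 female pituitaries pooled in the other. All mice were Sox9iresGFP/+, carrying a GFP reporter at 1 copy of Sox9, a transcription factor of pituitary stem cells, and GFP-positive cells were sorted and read by droplet single-cell RNA-seq. The study asked which cells arise from these stem cells soon after birth. No group without the reporter and no unsorted cells were part of these data. With 1 library of each sex, sex, animals, sort and library preparation cannot be told apart, and a difference between the sexes has no replicate check. Differences between classes of cells were measured within each library and required in both, and no p-value is given. Errors are exact Poisson limits for levels and exact binomial (Clopper-Pearson) limits for shares of cells, both at 95% and both covering counting error only.

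After filtering, 10410 male and 5711 female cells were kept, with medians of 8902.5 and 9789 unique molecular identifiers (UMIs, each counting 1 captured RNA molecule) per cell. Cells under 2000 UMIs made up 25.4% of the male and 1.68% of the female library. The libraries shared 19 cell barcodes. The labels call all of the sorted cells stem cells, but raw UMIs of other marker genes separated 6 classes. Levels are UMIs of a gene per 1000000 UMIs (CPM), both summed over the cells of a class. Stem cells, defined by Sox2 and Sox9 with no Lef1 or Pou1f1, numbered 1755 male and 1842 female. Differentiating cells, defined by Lef1 with other genes of that step, numbered 847 and 580. Gonadotroph-like cells, which make the subunits of the gonadotrophins, numbered 529 and only 50. Pou1f1-positive cells, the lineage of somatotrophs, lactotrophs and thyrotrophs, numbered 710 and 268, melanotroph-like cells with abundant Pomc 260 and 117, and mesenchymal-like cells 725 and 332. A further 5517 male cells (53.0%) and 2515 female cells (44.0%) met no gate. The immune and erythroid marker lists had no gene at 5 CPM or more in any of the 6 classes, and each class had its own markers at that level, except 1 of the 6 Pou1f1-lineage markers in the female library. The male library is given first throughout.

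The promoter windows of 4 abundant members whose class patterns are set out below are shown with their CG content, since methylation of CG pairs distinguishes the parental copies at imprinted control regions. Each window runs from 250 bases before to 50 bases after a RefSeq transcript start on GRCm38.p6, 5′ to 3′ on the strand of the gene, with CG dinucleotides in capitals. The Dlk1 window is chr12:109452573-109452872 on the plus strand, that of Meg3 is chr12:109540746-109541045 on the plus strand, that of Peg3 is chr7:6730370-6730669 on the minus strand and that of Nnat is chr2:157559828-157560127 on the plus strand.
Dlk1: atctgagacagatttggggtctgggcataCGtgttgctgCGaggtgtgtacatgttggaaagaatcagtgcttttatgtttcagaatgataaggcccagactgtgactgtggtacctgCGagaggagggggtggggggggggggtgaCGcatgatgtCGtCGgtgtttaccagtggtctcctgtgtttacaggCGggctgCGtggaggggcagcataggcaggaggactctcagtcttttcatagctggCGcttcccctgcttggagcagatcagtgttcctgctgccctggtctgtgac
Meg3: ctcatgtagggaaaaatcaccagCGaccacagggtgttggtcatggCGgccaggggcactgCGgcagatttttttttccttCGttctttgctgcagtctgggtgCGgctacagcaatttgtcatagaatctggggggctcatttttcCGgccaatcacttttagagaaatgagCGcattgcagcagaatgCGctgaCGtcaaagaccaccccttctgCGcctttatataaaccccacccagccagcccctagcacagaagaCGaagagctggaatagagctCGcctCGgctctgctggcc
Peg3: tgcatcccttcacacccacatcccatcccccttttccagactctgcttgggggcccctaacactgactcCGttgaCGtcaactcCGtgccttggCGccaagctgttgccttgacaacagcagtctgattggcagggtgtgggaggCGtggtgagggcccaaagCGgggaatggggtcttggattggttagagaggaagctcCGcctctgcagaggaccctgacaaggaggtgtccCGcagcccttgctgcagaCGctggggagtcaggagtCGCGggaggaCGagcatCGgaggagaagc
Nnat: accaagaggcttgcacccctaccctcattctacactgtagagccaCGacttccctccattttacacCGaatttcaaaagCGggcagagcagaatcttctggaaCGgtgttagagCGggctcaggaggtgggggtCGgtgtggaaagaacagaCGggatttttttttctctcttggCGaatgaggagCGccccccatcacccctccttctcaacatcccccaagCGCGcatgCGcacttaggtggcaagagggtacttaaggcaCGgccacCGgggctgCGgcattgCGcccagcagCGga
These windows held 9 CG dinucleotides for Dlk1, 13 for Meg3, 13 for Peg3 and 17 for Nnat, against a median of 7 over all 32851 promoter windows. At least as many were held by 45.8%, 37.9%, 37.9% and 31.4% of all windows, so these counts were common. Of the members, 9 had at least 1 window, giving 16 windows in all, and H19 had none. The first Grb10 window held 45 CG dinucleotides, the most of any member window, and 1.93% of all windows held as many. Its second window held 9 and the second Meg3 window 1. The Igf2 windows held 2, 14, 24 and 7, and the Plagl1 window 26. The palindrome GGGGCCCC, which is described as bound by PLAGL1, was found in 1 of the 16 member windows, that of Peg3, and in 354 of all windows (1.08%). Methylation was not measured in these cells.

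Dlk1, which encodes a membrane protein of the Notch ligand family that lacks the usual receptor-binding domain and marks progenitors, lies at chr12:109452823-109463336 on the plus strand of mm10. Its level was 2618 CPM (2599 to 2637) in male stem cells and 2407 CPM (2386 to 2428) in female ones. Pou1f1-positive cells held a similar amount, 2104 and 2816 CPM. Differentiating cells held 603 and 762 CPM and gonadotroph-like cells 585 and 721 CPM. Dlk1 thus split the classes into a high pair, stem and Pou1f1-positive, and a low group. With all cells counted, differentiating and gonadotroph-like cells of the low group had overlapping counting limits in both libraries. Dlk1 was lower still in melanotroph-like cells, with 369.8 and 354 CPM, and lowest in mesenchymal-like cells, with 272 and 224 CPM. Against stem cells, Dlk1 was 4.34-fold lower in male and 3.16-fold lower in female differentiating cells. After each cell was thinned to 5000 UMIs, a Dlk1 UMI was found in 89.6% of male and 85.0% of female stem cells, and in 60.5% and 62.2% of differentiating cells. Without thinning these shares were 92.4% and 90.01% in stem cells and 79.3% and 80.0% in differentiating cells.

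**Figure D1:**
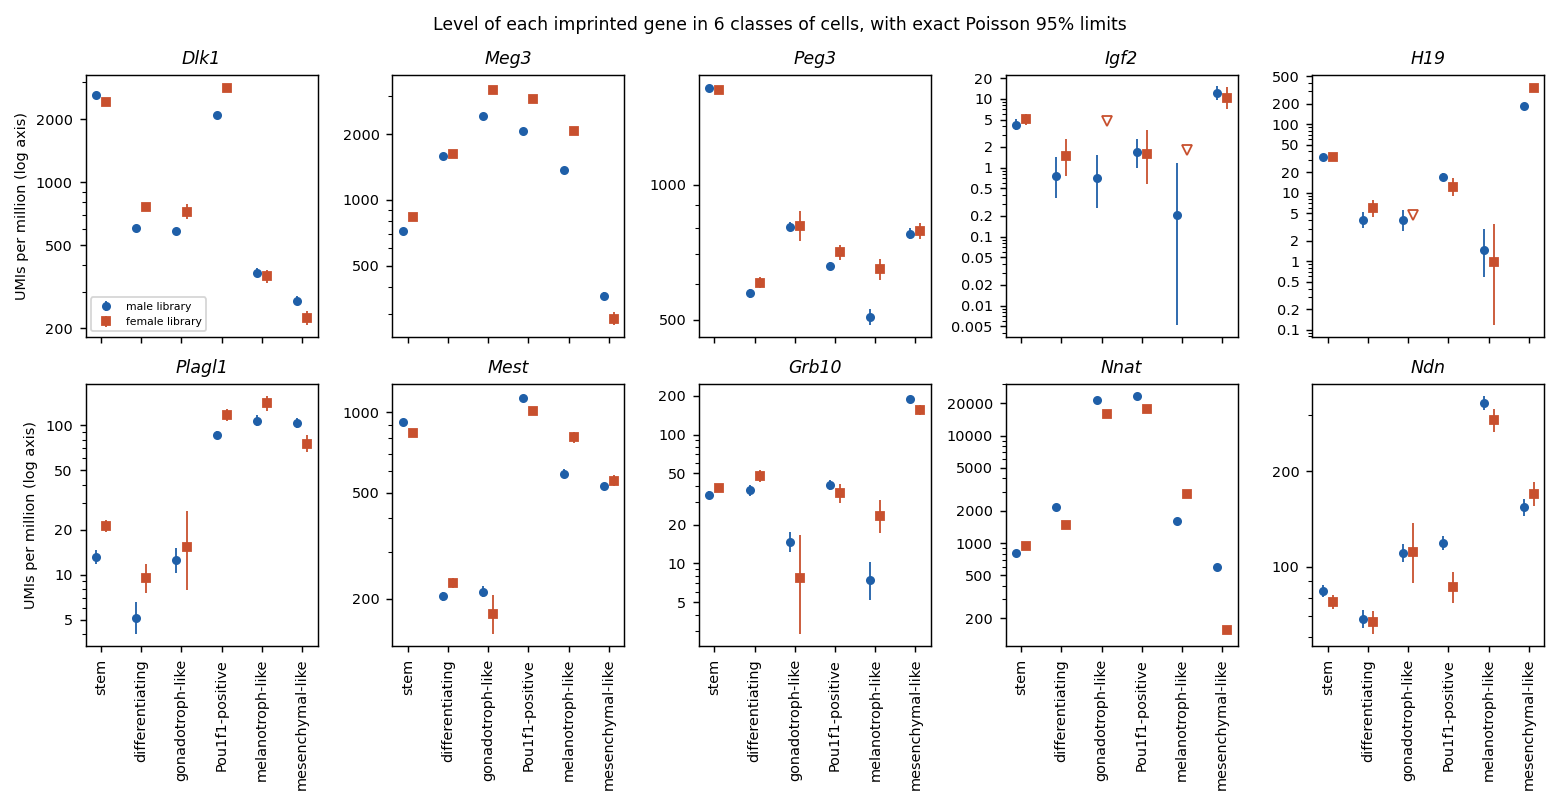
Level of each of the 10 genes, in CPM on a log axis, in the 6 classes of cells, with circles for the male and squares for the female library and bars for exact Poisson 95% limits. Dlk1 is high in stem and Pou1f1-positive cells, Nnat is at 15803 CPM or more in gonadotroph-like and Pou1f1-positive cells, and H19 is highest in mesenchymal-like cells.

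Part of the Dlk1 signal of mesenchymal-like cells lay in cells with high doublet scores. Scrublet, which scores a cell by its likeness to simulated pairs, marked 14.1% of male and 7.53% of female mesenchymal-like cells. Without the marked cells the Dlk1 level of the class was 160 CPM for male and 29.6 CPM for female cells, and the class held 860 in place of 1811 male Dlk1 UMIs and 77 in place of 675 female ones. Dlk1 was lower in mesenchymal-like than in stem cells with and without them, but its level there rested on them, and the fold went from 9.64 and 10.7 to 16.5 and 81.9. Other low classes also held less Dlk1 without the marked cells. Male differentiating cells then held 512 CPM and male gonadotroph-like cells 420 CPM, less alike than with all cells. The male gonadotroph-like fold below stem cells went from 4.47 to 6.32. Melanotroph-like cells then held 251 and 336 CPM.

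Meg3, a long non-coding RNA, starts 77.7 kb beyond the end of Dlk1 at chr12:109541001-109571726 on the same strand. Its order over the classes differed from that of Dlk1. Male stem cells held 718 CPM (708 to 728) of Meg3 and female stem cells 832 CPM (819.9 to 845). Differentiating cells held 1591 and 1628 CPM, gonadotroph-like cells 2432 and 3186 CPM and Pou1f1-positive cells 2068 and 2901 CPM. Melanotroph-like cells held 1370.0 and 2064 CPM and mesenchymal-like cells 363 and 286 CPM. Meg3 was therefore above its stem cell level in each of the 4 differentiating or endocrine classes and below it only in mesenchymal-like cells. The ratio to stem cells was 2.21 (2.15 to 2.28) in male and 1.96 (1.90 to 2.02) in female differentiating cells, 3.39 and 3.83 in gonadotroph-like cells and 2.88 and 3.49 in Pou1f1-positive cells.

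The neighbouring genes thus moved apart from stem cells to differentiating cells. Stem cells held 0.274 Meg3 UMIs for each Dlk1 UMI in the male library and 0.346 in the female library, while differentiating cells held 2.64 and 2.14. The ratio was 4.15 and 4.42 in gonadotroph-like cells and 3.70 and 5.83 in melanotroph-like cells. In Pou1f1-positive cells, in which both genes were high, it was 0.983 and 1.03. In mesenchymal-like cells, in which both were low, it was 1.34 and 1.28. Without the cells marked by Scrublet the mesenchymal-like ratio was 1.43 and 7.43, so its likeness between the libraries rested on those cells. The melanotroph-like ratio was then 5.57 and 6.14, so its gap between the libraries rested in part on them too. In male gonadotroph-like cells the ratio was then 5.99, and the female class had under 50 cells. From cell to cell within stem cells the genes were weakly and positively related after thinning, with Spearman's rho of 0.20 over 1675 male cells and 0.22 over 1812 female cells. These are descriptions over cells of 1 library each, which share their preparation.

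**Figure D2:**
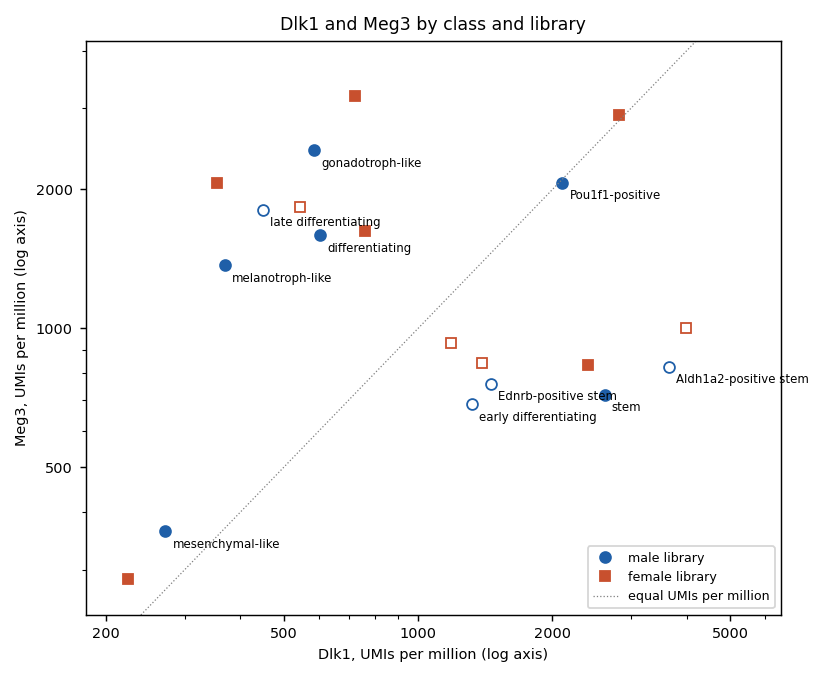
Meg3 against Dlk1, both in CPM on log axes, with filled symbols for the 6 classes and open symbols for subsets of stem and differentiating cells, circles for the male and squares for the female library. Stem cells lie to the lower right, at 0.274 and 0.346 Meg3 UMIs per Dlk1 UMI, late differentiating and gonadotroph-like cells to the upper left, and Pou1f1-positive cells near the dotted line of equal counts.

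Peg3, Plagl1 and Ndn encode nuclear proteins. Peg3, a zinc-finger protein at chr7:6703892-6730431 on the minus strand, was highest in stem cells, with 1639 CPM (1623 to 1654) and 1628 CPM (1611 to 1645). The other classes lay in a narrow band between 506 and 809.6 CPM, with the lowest level in male melanotroph-like cells. Peg3 was 2.86-fold and 2.69-fold lower in differentiating cells and 2.49-fold and 2.30-fold lower in Pou1f1-positive cells than in stem cells. In gonadotroph-like cells the difference only just reached 2-fold, with 2.03 and 2.01, and in mesenchymal-like cells it was 2.11-fold and 2.07-fold. Peg3 was the member lower than in stem cells by 2-fold or more in both libraries in all 5 other classes, and Dlk1 in 4 of them.

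Plagl1, a zinc-finger transcription factor at chr10:13060504-13131694, showed the reverse in several classes. Stem cells held 13.2 CPM (11.8 to 14.6) and 21.1 CPM (19.2 to 23.2), and differentiating cells less, 5.14 and 9.50 CPM. Pou1f1-positive cells held 85.6 and 117 CPM, melanotroph-like cells 107 and 139.9 CPM and mesenchymal-like cells 103 and 75.4 CPM. Plagl1 was thus higher than in stem cells by 6.502-fold and 5.53-fold, 8.14-fold and 6.62-fold, and 7.85-fold and 3.57-fold in these 3 classes. Gonadotroph-like cells, at 12.5 and 15.3 CPM, had ratios to stem cells of 0.949 (0.6999 to 1.28) and 0.725 (0.342 to 1.39), whose limits span 1. A Plagl1 UMI was found in 5.55% and 8.44% of thinned stem cells and in 45.7% and 43.6% of thinned melanotroph-like cells.

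Ndn, which encodes the MAGE family protein necdin, known to restrain the cell cycle in neurons, lies at chr7:62346569-62350262. It varied least among stem, differentiating, gonadotroph-like and Pou1f1-positive cells, between 66.8 and 119 CPM over both libraries. Melanotroph-like cells stood above them, with 328 CPM (312 to 345) and 289 CPM (266 to 313), which was 3.91-fold and 3.72-fold the level in stem cells. Mesenchymal-like cells held 154 and 169.7 CPM.

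Igf2, a secreted growth factor, and H19, a non-coding RNA, lie 72.6 kb apart on chromosome 7, at chr7:142650766-142666816 and chr7:142575529-142578143, both on the minus strand. H19 was highest in mesenchymal-like cells, with 183 CPM (173 to 194) and 334 CPM (313 to 355). Stem cells held 33.5 CPM (31.3 to 35.7) and 33.2 CPM (30.8 to 35.7), and Pou1f1-positive cells 16.9 and 12.3 CPM. Differentiating cells held 4.07 and 5.92 CPM, gonadotroph-like cells 4.05 CPM in the male library and no UMI in the female one, and melanotroph-like cells 1.45 and 0.972 CPM. H19 was thus 5.47-fold and 10.1-fold higher in mesenchymal-like than in stem cells, and 8.23-fold and 5.60-fold lower in differentiating than in stem cells. Without the cells marked by Scrublet, differentiating cells held 2.45 and 2.31 CPM, 14.0-fold and 14.5-fold below stem cells, and male gonadotroph-like cells were 18.3-fold in place of 8.27-fold below them. The melanotroph-like levels rest on 7 and 2 UMIs, and the 0 UMIs in 50 female gonadotroph-like cells allow a level of up to 3.83 CPM by the rule of 3 counts of the class total and 4.71 CPM by the exact upper limit.

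An H19 UMI was found in 42.3% and 46.7% of mesenchymal-like cells thinned to 5000 UMIs and in 8.30% and 10.0% of thinned stem cells, and without thinning in 48.1% and 51.2% and in 19.4% and 18.9%. Dcn, a proteoglycan of fibroblasts, was in stem cells at 0.0378% and 0.0123% of its mesenchymal-like level, and H19 in stem cells was at 18.3% and 9.94%. Dcn is also 1 of the 9 markers of the mesenchymal gate, which keeps cells rich in it out of the stem class, and the part of free RNA in the H19 of stem cells was not tested. Markers of vessel cells were found in mesenchymal-like cells too, 6 and 5 of 6 mural markers at 5 CPM or more (summed levels of 264 and 242 CPM) and 3 and 3 of 6 endothelial markers (205 and 251 CPM). Their part in the levels of H19, Grb10 and Plagl1 there was not tested.

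Igf2 was the least abundant member. Mesenchymal-like cells held 12.1 CPM (9.65 to 15.1) and 10.3 CPM (6.99 to 14.6) and stem cells 4.21 CPM (3.47 to 5.05) and 5.03 CPM (4.13 to 6.08). The remaining classes held 1.67 CPM or less, with 0 UMIs in female gonadotroph-like and melanotroph-like cells. Its order over the classes was that of H19, apart from female gonadotroph-like and melanotroph-like cells, in which Igf2 was 0 in both. From Pou1f1-positive cells down, neighbouring classes had overlapping Igf2 limits. Its mean level was under the 10 CPM required for the counts by fold below. Over 12 points, the 6 classes in each library, Igf2 and H19 had a Pearson r of 0.98 on log2(CPM + 10), as a description of points that share libraries. Igf2 was 12.1 CPM at most, so the added 10 CPM draws its low classes together. The value of r therefore rests largely on the mesenchymal-like points. The level of Igf2 is uncertain for a further reason. Gm49394, a gene model on the same strand that is also in the feature list, covers 3596 of the 5723 exon bases of Igf2 (62.8%) and 497 of its last 500, and a read in shared exons cannot be assigned to 1 gene. Over all barcodes Igf2 had 328 and 264 UMIs and Gm49394 had 1 and 0. What part of the Igf2 reads was lost this way was not tested.

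Grb10 encodes an adaptor that dampens insulin and IGF receptor signalling and lies at chr11:11930508-12038683 on the minus strand. Like H19 it was highest in mesenchymal-like cells, with 189 CPM (179 to 199.6) and 156 CPM (142 to 170.5), while stem cells held 34.2 CPM (32.0 to 36.4) and 38.6 CPM (36.0 to 41.3). The difference was 5.53-fold and 4.04-fold. Unlike H19 it was not lower in differentiating cells, at 36.8 and 47.6 CPM, and Pou1f1-positive cells held 40.7 and 35.0 CPM. Gonadotroph-like cells held less, 14.6 and 7.66 CPM, and male and female melanotroph-like cells 7.44 and 23.3 CPM, whose limits (5.21 to 10.3 and 17.2 to 30.9) did not overlap.

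Mest, which encodes an enzyme of the alpha/beta hydrolase fold and is a common marker of mesodermal growth, lies at chr6:30723547-30748465. Stem cells held 917 CPM (905 to 928) and 838 CPM (826 to 850.3) and Pou1f1-positive cells 1133 and 1012 CPM. Differentiating cells held 204 and 229 CPM and gonadotroph-like cells 213 and 175 CPM, which was 4.50-fold and 3.66-fold and 4.31-fold and 4.79-fold lower than in stem cells. Mest therefore shared with Dlk1 the high levels in stem and Pou1f1-positive cells and the low levels in differentiating and gonadotroph-like cells. It differed from Dlk1 in melanotroph-like cells, at 589 and 807 CPM, and in mesenchymal-like cells, at 527 and 553 CPM, where it was less than 2-fold below stem cells.

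Nnat encodes neuronatin, a small membrane protein of the endoplasmic reticulum found in neuroendocrine cells, and lies at chr2:157560078-157562522 within the gene Blcap, which runs on the other strand and with which it shares no exon base. Its highest class exceeded its lowest by 38.7-fold and 114-fold. Gonadotroph-like cells held 21444 CPM (21346 to 21544) and 15803 CPM (15526 to 16084) and Pou1f1-positive cells 23342 CPM (23253 to 23431) and 17764 CPM (17629 to 17899.7). Stem cells held 814 and 934 CPM, differentiating cells 2176 and 1465 CPM, melanotroph-like cells 1591 and 2883 CPM and mesenchymal-like cells 604 and 155 CPM. Nnat was 26.3-fold and 16.9-fold higher in gonadotroph-like and 28.7-fold and 19.01-fold higher in Pou1f1-positive than in stem cells, but only 1.95-fold and 3.09-fold higher in melanotroph-like cells. In thinned cells, a Nnat UMI was found in 71.0% and 83.8% of melanotroph-like cells and in 88.3% and 83.6% of stem cells. Median counts were 2 and 4 UMIs in melanotroph-like and 3 and 3 in stem cells. The male melanotroph-like class was thus higher through part of its cells only. The endocrine classes were not alike in Nnat.

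The Nnat level of mesenchymal-like cells was 2.59% (male) and 0.875% (female) of the Pou1f1-positive level. Hormone transcripts were also found in these cells, Cga at 1.54% and 0.0804% of its gonadotroph-like level and Pomc at 0.163% and 0.0275% of its melanotroph-like level. Without the cells marked by Scrublet, Nnat in mesenchymal-like cells was 246 and 89.8 CPM. The part of free RNA and of doublets in the Nnat of this class was not tested.

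**Figure D3:**
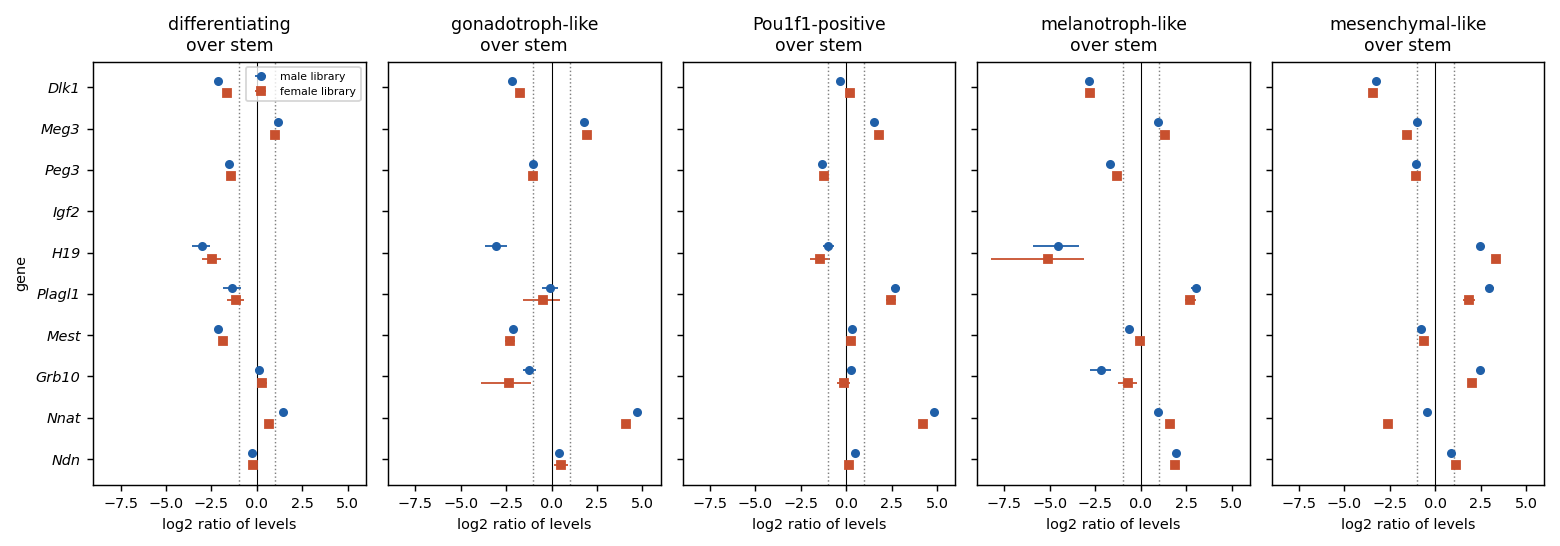
Ratio of each gene's level in 5 classes to its level in stem cells, on a log2 scale, with circles for the male and squares for the female library, bars for counting limits and dotted lines at 2-fold. Igf2, which was under the level required, and H19 with 0 UMIs in female gonadotroph-like cells are not drawn. Dlk1 and Peg3 lie left of the line in most panels, Nnat and Meg3 to the right in gonadotroph-like and Pou1f1-positive cells, and H19, Plagl1 and Grb10 to the right in mesenchymal-like cells.

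Counted over the members, 9 of the 10 reached a mean of 10 CPM in each comparison of classes with stem cells, Igf2 being the exception. A gene was counted as higher or lower when it differed at least 2-fold in the same direction in both libraries. In differentiating cells 0 members were higher and 5 were lower, Dlk1, Peg3, H19, Plagl1 and Mest, where 4.16% of 8509 features were higher and 10.8% lower. The median log2 ratio of the 9 was -1.36 (male) and -1.15 (female), against 0.02 and 0.02 over all features tested. In gonadotroph-like cells 2 were higher, Meg3 and Nnat, and 5 lower, Dlk1, Peg3, H19, Mest and Grb10, where 8.73% of features were higher and 11.2% lower. The medians there were -1.02 and -1.01 for the members and 0.09 and 0.08 for all features.

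In Pou1f1-positive cells the members leaned the other way, with 3 higher, Meg3, Plagl1 and Nnat, and 1 lower, Peg3, beside 5.8% of features higher and 8.71% lower. Their median log2 ratio was 0.31 and 0.23, against 0.04 and 0.01 over all features. In melanotroph-like cells 2 were higher, Plagl1 and Ndn, and 3 lower, Dlk1, Peg3 and H19, beside 7.03% and 15.1% of features. Pomc alone took 255966 CPM in male and 131821 CPM in female melanotroph-like cells, and the median feature there lay at -0.41 and -0.14 on the log2 scale relative to stem cells. With the totals taken without hormone genes, 4 members were higher in melanotroph-like cells, Meg3 and Nnat being added. In mesenchymal-like cells 3 were higher, H19, Plagl1 and Grb10, and 2 lower, Dlk1 and Peg3, beside 9.61% and 9.46% of features. Without the cells marked by Scrublet 4 were lower there, Meg3 and Nnat being added. With class totals scaled by TMM or levels averaged over cells, 1 member was lower there, and Peg3 no longer reached 2-fold. With hormone-free totals Peg3 also missed 2-fold in gonadotroph-like cells, at a mean log2 ratio of -0.99. Peg3 thus lay close to the 2-fold limit in mesenchymal-like and gonadotroph-like cells.

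Differentiating cells were divided into an early set, with Cdkn1a or Dll1 and few late transcripts (81 male and 71 female cells), and a late set, with Smoc2, Pou3f4, Shh or C1ql2 (637 and 400 cells). Dlk1 was 1319.7 CPM (1256 to 1386) and 1187 CPM (1119 to 1258) in early cells and 449 CPM (437 to 463) and 545 CPM (526 to 564) in late cells. With all cells counted, the early level lay between the stem cell and the gonadotroph-like level and the late level below the latter. Without the cells marked by Scrublet, male gonadotroph-like cells held 420 CPM. The female gonadotroph-like class had only 50 cells, so the order of late and gonadotroph-like cells is uncertain. Peg3 was 1337 and 950.4 CPM in early and 428 and 467 CPM in late cells. Mest was 340.5 and 379.7 CPM in early and 169 and 177 CPM in late cells. For each of these 3 genes the summed level of early cells thus lay between the stem cell level and the late level in both libraries. In thinned cells the Dlk1 median was 11 and 8 UMIs in stem, 2 and 3 in early and 1 and 1 in late cells. Single early cells held up to 44 Dlk1 UMIs in either library, so the early Dlk1 level lay in part of the cells. Peg3 medians were 7 and 6, 3 and 4, and 1 and 1 UMIs.

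Meg3 and Nnat had not reached their later levels in the early cells. Meg3 was 684 CPM (638 to 733) and 929 CPM (869 to 991) in early cells, close to the 718 and 832 CPM of stem cells, and 1809 and 1831 CPM in late cells. Nnat was 973 and 940.0 CPM in early and 2246 and 1423 CPM in late cells. Its median in thinned cells was 1 and 2 UMIs in early and 4 and 2 UMIs in late cells. A Nnat UMI was found in 81.7% of early and 81.25% of late female cells. The higher female level in late cells thus lay in part of the cells. Each Dlk1 UMI was accompanied by 0.519 and 0.782 Meg3 UMIs in early cells and by 4.02 and 3.36 in late cells. In differentiating cells, thinned, Meg3 and Nnat were positively related from cell to cell, with Spearman's rho of 0.40 over 835 male and 0.29 over 577 female cells, and so were Dlk1 and Peg3, with 0.35 and 0.29. The order of early and late cells comes from marker genes and not from a time course.

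**Figure D4:**
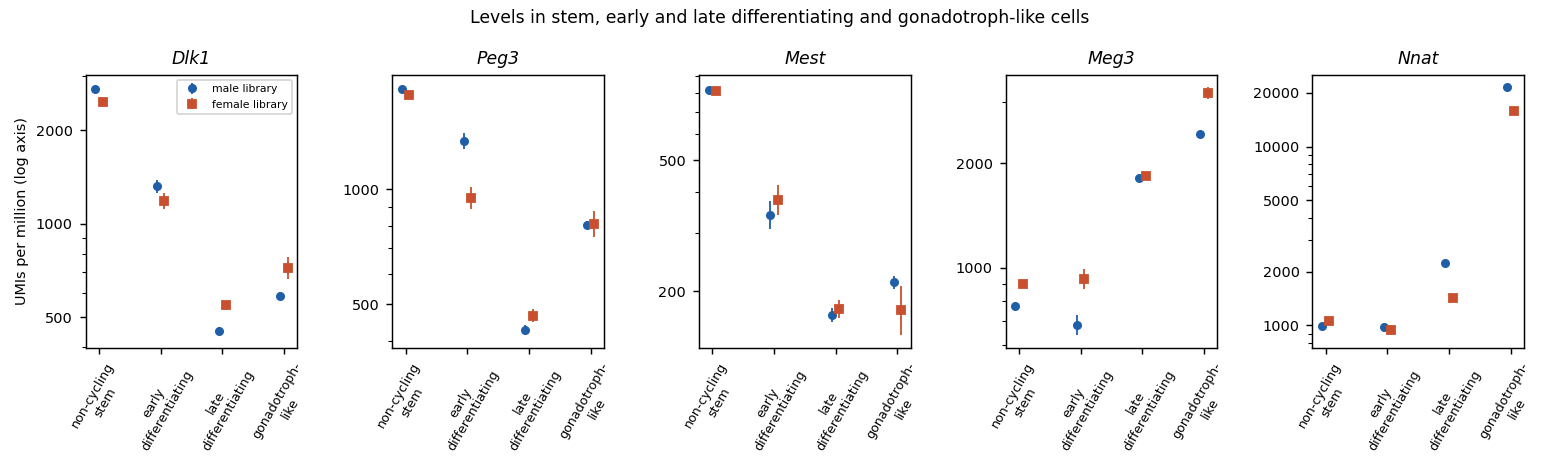
Levels of the most abundant members, in CPM on log axes, in non-cycling stem, early and late differentiating and gonadotroph-like cells, with circles for the male and squares for the female library and exact Poisson 95% limits. Dlk1 is 1319.7 and 1187 in early and 449 and 545 in late cells, while Meg3 is 684 and 929 in early and 1809 and 1831 in late cells.

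Within stem cells, those with at least 2 of 8 proliferation markers (585 male and 366 female) were compared with those with none (900 and 1210). H19 was the only member past 2-fold, with 48.5 CPM (44.8 to 52.3) in cycling and 17.2 CPM (14.8 to 19.99) in non-cycling male cells, and 51.4 CPM (45.9 to 57.3) and 23.0 CPM (20.3 to 25.9) in female cells. The ratios were 2.82 (2.24 to 3.55) and 2.24 (1.77 to 2.82), where 4.47% of features were higher and 0.176% lower. An H19 UMI was found in 15.7% and 17.3% of thinned cycling cells and in 4.33% and 8.11% of thinned non-cycling cells. Without thinning the shares were 36.6% and 38.5% and 8.67% and 12.4%, and the median depth was 20120 and 14426 UMIs in cycling and 9564 and 9054 in non-cycling cells. The H19 ratio missed 2-fold in at least 1 library after thinning and with every marker minimum doubled. Nnat, at 656 and 684 CPM in cycling and 992 and 1060.1 CPM in non-cycling cells, had ratios of 0.661 and 0.645. Dlk1 scarcely differed, at 0.926 and 0.982.

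Non-cycling stem cells were also separated by Ednrb, an endothelin receptor, and Aldh1a2, an enzyme of retinoic acid synthesis. Ednrb-positive cells (186 and 470) had at least 2 Ednrb UMIs, whatever their Aldh1a2. Aldh1a2-positive Ednrb-negative cells (416 and 349) had at least 3 Aldh1a2 UMIs and no Ednrb UMI. Cells that met neither rule were left out. Dlk1 was 1458 CPM (1409 to 1509) in male and 1389.9 CPM (1357 to 1424) in female Ednrb-positive cells, whereas Aldh1a2-positive Ednrb-negative cells held 3643 CPM (3589 to 3697) and 3980.1 CPM (3914 to 4047). It was 2.498-fold and 2.86-fold lower in the Ednrb-positive cells and was the 1 member called, with 0 higher, where 1.03% of features were higher and 0.511% lower. Peg3 leaned the same way, at ratios of 0.746 and 0.653, as did H19, at 0.512 (0.266 to 0.946) and 0.466 (0.310 to 0.696). Plagl1 was 22.9 and 22.6 CPM in Ednrb-positive and 6.81 and 11.8 CPM in Aldh1a2-positive cells, with ratios of 3.37 (1.79 to 6.44) and 1.92 (1.16 to 3.22), the second of which misses 2-fold. Mest was alike in both sets, with ratios of 1.22 and 1.02.

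Grouping thinned non-cycling stem cells by their own Aldh1a2 UMIs gave 5 groups. Cells with 0 Aldh1a2 UMIs held 7.74 (7.24 to 8.27) Dlk1 UMIs per male cell and 6.65 (6.34 to 6.97) per female cell. Cells with 1 or 2 held 10.8 and 10.9, those with 3 to 5 held 14.6 and 14.7, and those with 6 to 9 held 19.2 and 21.1. At 10 or more, a group of 61 male and 37 female cells, the means were 21.0 (19.8 to 22.1) and 18.2 (16.9 to 19.6), so the highest group exceeded the one before it in the male library only, with overlapping limits. Peg3 went from 5.36 and 6.07 UMIs per cell at 0 to 13.5 and 13.2 at 10 or more, and Nnat from 6.59 and 7.89 to 3.56 and 3.92. Meg3 was 3.10 and 3.64 UMIs per cell at 0, 4.40 and 5.83 at 6 to 9 and 5.05 and 5.76 at 10 or more. Its male level at 1 or 2 was 2.93, so it did not go up at each step. Mest stayed between 3.57 and 4.46 UMIs per cell in all groups. Peg3 thus went up from group to group in both libraries, as Dlk1 did up to 6 to 9 Aldh1a2 UMIs, beyond which female Dlk1 was lower. Nnat went down to 3.44 and 3.05 at 6 to 9 and was not lower in the top group. Between the Ednrb-positive and Aldh1a2-positive sets, Nnat differed in direction by library, with ratios of 0.792 and 1.69.

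**Figure D5:**
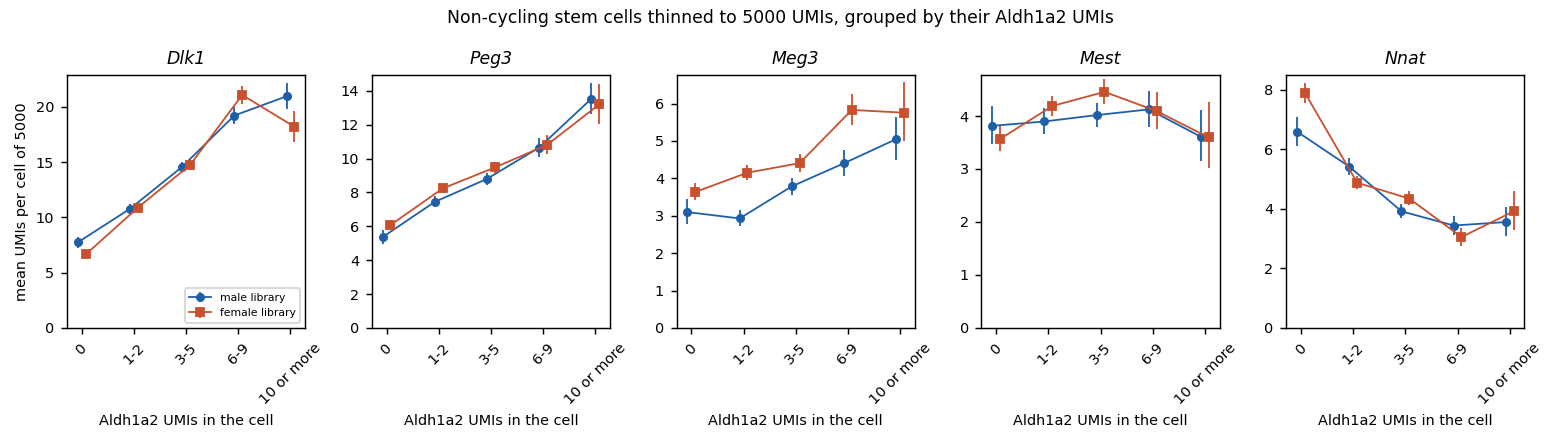
Mean UMIs per cell of abundant members in non-cycling stem cells thinned to 5000 UMIs, grouped on the x axis by the Aldh1a2 UMIs of the cell, with circles for the male and squares for the female library and exact Poisson 95% limits. Dlk1 goes from 7.74 and 6.65 at 0 Aldh1a2 UMIs to 19.2 and 21.1 at 6 to 9, and Peg3 also goes up. Meg3 is higher and Nnat lower at 6 to 9 than at 0, and Mest stays between 3.57 and 4.46.

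Pou1f1-positive cells were divided by Gh, the growth hormone transcript. In the male library, 113 Gh-rich cells held 2766 CPM (2696 to 2838) of Dlk1 and 597 Gh-poor cells 1952 CPM (1924 to 1981). Peg3 was 1205 CPM (1159 to 1253) in Gh-rich and 533 CPM (518 to 548) in Gh-poor cells, and Plagl1 169 CPM (152 to 187) and 66.6 CPM (61.4 to 72.0). Nnat went the other way, with 7361 CPM (7246 to 7477) in Gh-rich and 27010.5 CPM (26905 to 27117) in Gh-poor cells, as did Mest, with 633 and 1248 CPM. The high Nnat level of the class was thus carried by cells poor in Gh. Markers of other classes moved with this split, the 8 stem markers summing to 1276 CPM in Gh-rich and 717 CPM in Gh-poor cells and the 5 melanotroph markers to 1061 and 263 CPM. Their part in the higher Dlk1 and Peg3 was not tested. From cell to cell, thinned, Nnat was positively related to Mest, with rho of 0.48 over 659 male and 0.55 over 261 female cells, and negatively to Peg3, with -0.38 and -0.34. The female library had 48 Gh-rich cells, under the minimum of 50, and their levels are not given. The 220 female Gh-poor cells held 60.8 CPM (52.2 to 70.5) of Plagl1 and 6.22 CPM (3.69 to 9.83) of H19. The whole female class held 117 and 12.3 CPM, so these female levels rested in good part on the few Gh-rich cells.

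Between the libraries, the members were close in stem cells. A difference of 1.5-fold between the female and the male library was reached by 1 member of 9, Plagl1, at 1.60-fold (1.32 to 1.96) higher in the female library, where 2.37% of 8533 features reached it either way. In differentiating cells 0 of the 7 members with sufficient level reached it, beside 2.71% of features, and Nnat came nearest with a 1.48-fold higher level in the male library. In mesenchymal-like cells 2 of 10 did, beside 7.11% of features. Without the cells marked by Scrublet, Dlk1 also differed there, with a female over male log2 ratio of -2.44. With all cells, H19 was 1.82-fold (1.62 to 2.05) higher in the female and Nnat 3.89-fold higher in the male library. The male library also held more Cga and Pomc in these cells, at 228 and 417 CPM against 11.3 and 36.2 CPM in the female library, and the part of such transcripts in the Nnat difference was not tested.

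Across the 12 points of class and library, some members had like and some opposite orders. On log2(CPM + 10), Pearson's r was 0.90 between H19 and Grb10, 0.89 between Meg3 and Nnat and 0.73 between Plagl1 and Ndn. It was -0.91 between Meg3 and H19, and 0.34 between the neighbours Dlk1 and Meg3. Among 4297 features of at least 50 CPM in some class, those most like a member by this measure were Nol7 for Dlk1 (0.93), A730017C20Rik for Meg3 (0.99), Ccdc34 for Peg3 (0.97), Angptl4 for H19 (0.99), Ubl3 for Plagl1 (0.93), Ing2 for Mest (0.91), Mbnl1 for Grb10 (0.97), Mapk8ip1 for Nnat (0.97), Dtd1 for Ndn (0.94) and Col4a2 for Igf2 (0.99). Of the 30 genes named by this rule, 3 for each member, 21 were kept with a pseudocount of 1. Angptl4 for H19 was not kept, nor were Col4a2 and the others for Igf2. The points share their libraries, and the largest values among so many features are high by selection.

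Of 40 other imprinted genes listed, 37 were found and 20 to 23 had sufficient level in a comparison with stem cells. In differentiating cells 1 was higher, Cdkn1c, an inhibitor of the cell cycle, and 5 lower, Sgce, Zim1, Usp29, Airn and Begain. Cdkn1c held 417 and 449 CPM in stem and 1125 and 1106 CPM in differentiating cells. Zim1 and Usp29 lie beside Peg3, and Zim1 held 68.2 and 58.0 CPM in stem and 11.4 and 11.1 CPM in differentiating cells, while Usp29 held 79.1 and 94.2 CPM and 31.8 and 45.3 CPM. Both were lower in differentiating cells, as Peg3 was, but Usp29 was level with stem cells in gonadotroph-like cells, with ratios of 0.996 and 0.935, and in melanotroph-like cells, with 1.02 and 0.980, in which Peg3 was lower. In differentiating cells the 1 higher and 5 lower of 20 stand beside 4.16% and 10.8% of features. In gonadotroph-like cells 4 were higher and 4 lower of 22, beside 8.73% and 11.2%, in melanotroph-like cells 3 and 2 of 20, beside 7.03% and 15.1%, and in mesenchymal-like cells 1 and 5 of 20, beside 9.61% and 9.46%.

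Pou1f1-positive cells had the most of this list above stem cells, 9 higher and 3 lower of 23, beside 5.8% and 8.71% of all features. Peg10, a retrotransposon-derived gene, held 10.1 and 10.9 CPM in stem and 224 and 144 CPM in Pou1f1-positive cells. Nap1l5 was 19.7-fold and 21.7-fold higher in Pou1f1-positive cells, and in melanotroph-like cells it held 508 and 414 CPM against 3.88 and 2.78 CPM in stem cells. Blcap, the gene around Nnat, was 2.80-fold and 3.12-fold higher in Pou1f1-positive and 3.45-fold and 3.19-fold higher in gonadotroph-like cells, the classes in which Nnat was highest.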

How the data were processed

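Polyadenylated RNA of sorted pituitary cells was read in 2 droplet single-cell libraries, 1 male and 1 female. The authors made the deposited UMI counts with Cell Ranger 3.0.2 and STAR 2.5.1b on the mm10 transcriptome extended by eGFP, and filtered barcodes to cells. The submitters' processing notes name R 3.6.0 and Seurat 3 and 4. The sources differ on the chemistry version.

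From these counts, cells with at least 50 detected genes and a mitochondrial share within 3 SD of the library mean (20.4% and 26.1%) were kept, which removed 159 male and 85 female cells. Cells were gated on raw UMIs of markers, and cells in more than 1 gate (67 and 7) were set aside. The gates required 3 of 9 mesenchymal markers at 2 UMIs, Cga at 10 UMIs with 2 of 7 other gonadotroph markers, Pou1f1 at 3 UMIs or at 1 UMI with Gh at 10, Pomc at 20 UMIs with 2 of 4 other melanotroph markers, Lef1 at 2 UMIs with 2 of 9 other markers, or, for stem cells, Sox2 at 2 UMIs, Sox9 at 1 and 1 other stem marker. No cell was removed as a doublet in the main values. Scrublet scores marked 867 and 261 cells for an alternative. UMIs were summed per class and library and divided by the class total. Features with a mean of at least 10 CPM over the classes compared were counted at 2-fold, or 1.5-fold between libraries, and classes needed 50 cells. Limits of a ratio combine those of both levels and are therefore wide. Shares of cells were taken after thinning to 5000 UMIs. On simulated counts for differentiating over stem, 99 of 99 features raised at least 3-fold and 52 of 52 lowered 3-fold were found. Of 8269 others, 0 passed. The changed features were at 50 CPM or more in stem cells, above the stem cell levels of H19, Plagl1, Grb10 and Igf2. These counts held Poisson error only, with no doublets, free RNA or difference between libraries, so they do not measure errors from those. All 10 members are named, with the 3 most similar genes each computed. The members, gene lists and marker lists were chosen with earlier results of these data known. Alternatives covered cell filters, gates, doublets, thinning, averaging, edgeR 4.0.16 TMM scaling, hormone-free totals and the level filter. Python 3.11.15, numpy 2.4.6, scipy 1.17.1, scanpy 1.11.5 and R 4.3.3 were used. Sequences and their coordinates are from RefSeq on GRCm38.p6, and gene positions are from the annotation given for mm10.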

Additional observations from a re-analysis of the deposited data

Results flagged for a closer look

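The effects of 3 comparisons lay on opposite sides of no change in the libraries of either sex, with counting limits that did not include 1 in either. None of these differences was tested, since each sex was 1 library. Dlk1 in Pou1f1-positive over stem cells had a log2 ratio of -0.32 (male) and 0.23 (female), a difference of 0.54 (ratios of 0.804 and 1.17). Ndn in cycling over non-cycling stem cells had -0.18 and 0.24, a difference of 0.43 (ratios of 0.880 and 1.18). Nnat in Ednrb-positive over Aldh1a2-positive Ednrb-negative stem cells had -0.34 and 0.76, a difference of 1.09 (ratios of 0.792 and 1.69). In thinned male cells its median was 3 UMIs in both sets, with maxima of 31 and 109. The female medians were 3 and 2. Melanotroph markers summed to 378 and 1184 CPM in the male sets and 61.0 and 171 CPM in the female ones. Their part in the Nnat difference was not tested.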

How the results depend on the processing

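Of 740 values for single members under the alternatives, 698 kept their direction and their side of the 2-fold limit, 37 newly passed it and 5 no longer did, and none turned direction. Counts of members moved by over 1.5 times as follows, from 0 higher in differentiating, 1 lower in Pou1f1-positive, 2 higher in melanotroph-like, 2 lower in mesenchymal-like, 1 higher in cycling, and 0 higher and 1 lower in Ednrb-positive cells, and from 0 and 2 between the libraries in differentiating and mesenchymal-like cells. With at least 1000 or at least 2000 detected genes per cell, 2 members were lower in Pou1f1-positive cells. Without cells marked by Scrublet, 1 was higher in differentiating cells, 2 lower in Pou1f1-positive, 4 lower in mesenchymal-like and 2 lower in Ednrb-positive stem cells. With doubled marker minimums, 1 was higher in differentiating, 2 lower in Pou1f1-positive and 0 higher in cycling stem cells, and 2 differed between the libraries in differentiating cells. After thinning, 4 were higher in melanotroph-like, 4 lower in mesenchymal-like, 0 higher in cycling, and 1 higher and 2 lower in Ednrb-positive stem cells, and 1 differed between the libraries in differentiating cells. With levels averaged over cells, 4 were higher in melanotroph-like, 1 lower in mesenchymal-like and 2 lower in Ednrb-positive cells, and 1 and 4 differed between the libraries in differentiating and mesenchymal-like cells. With TMM scaling, 1 was higher in differentiating, 2 lower in Pou1f1-positive, 4 higher in melanotroph-like, 1 lower in mesenchymal-like and 2 lower in Ednrb-positive cells. With hormone-free totals, 4 were higher in melanotroph-like cells. With no filter on low levels, features past 2-fold numbered 4967 in place of 1273 in differentiating, 5624 in place of 1750 in gonadotroph-like, 4928 in place of 1269 in Pou1f1-positive, 6497 in place of 1870 in melanotroph-like, 5833 in place of 1682 in mesenchymal-like, 1712 in place of 396 in cycling and 1323 in place of 130 in Ednrb-positive cells. The causes were not tested. The gonadotroph-like comparison was not run with 1000 or 2000 genes, without Scrublet-marked cells, with doubled minimums or after thinning, nor the Ednrb comparison with doubled minimums, since a class then had under 50 cells. No paired analysis was possible because the labelled groups, male and female, were 1 library each, and no result comes from a test. Classes were compared within each library. Depth limits Igf2 and H19 in the endocrine classes, which rest on few UMIs.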

Other observations

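Cells that met no gate had medians of 2547 UMIs (male) and 8836 UMIs (female). They held 1872 and 2175 CPM of Dlk1, 1091 and 963 CPM of Meg3 and 1139.8 and 1249 CPM of Peg3, between the stem cell and the differentiating level of each gene. H19 was 22.0 and 18.3 CPM and Mest 599 and 663 CPM in them. Nnat was 3601 and 1923 CPM, above its level in stem cells in both libraries.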
